A study of Mus musculus with 12 samples.

Results

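Retinoid metabolism and the receptors of retinoic acid were followed in C2C12 cells through 9 genes, taken by symbol from a table of 23446 genes. They were the retinaldehyde reductase Dhrs3, the retinoic acid receptors Rara, Rarb and Rarg, the retinoid X receptors Rxra and Rxrb, the carriers Crabp1 and Crabp2, and the breakdown enzyme Cyp26b1. Dhrs3 was picked because its level was lower with acetoacetate in differentiation medium, so its values in that comparison, and in those that share its libraries, are given as a description without a test. The other members were chosen by function. Of the 9 genes, 8 had enough reads to be tested, among 12230 such genes in all. Crabp1 did not.

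C2C12 is an established line of mouse myoblasts, which divide in growth medium (GM) and fuse into myotubes once moved to differentiation medium (DM). Cells in either medium were given a ketone body that muscle can oxidise, acetoacetate (AA), or phosphate-buffered saline (PBS) as control. Treatment lasted 12 h, and 3 libraries were made for each pairing of medium and treatment, written below as GM-PBS, GM-AA and likewise for DM. The study asked which genes respond to AA in dividing and in differentiating cells. The labels give no salt or dose of AA and do not state that the libraries came from separate cultures, so p-values measure how these samples vary, and that variation may be technical. Gene counts summed to 7959519 to 9893564 reads per library.

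Retinol enters the cell, is oxidised to retinaldehyde by retinol dehydrogenases and then to retinoic acid by retinaldehyde dehydrogenases, while Dhrs3 runs the first step backwards and so holds back the supply of retinoic acid. Retinoic acid reaches the nucleus with carrier proteins such as Crabp2 and binds retinoic acid receptors (RAR), which sit on DNA as pairs with retinoid X receptors (RXR). Enzymes of the Cyp26 family break it down. In embryos and cultured myoblasts the pathway is known for its part in muscle differentiation, and Dhrs3, Rarb and Cyp26 genes are known to be induced by retinoic acid.

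An RAR and RXR pair binds direct repeats of a short half-site. The stretches of 250 bases before a start listed in RefSeq are shown for 3 genes. They are the gene whose fall led to this set, the receptor known for such a repeat, and the receptor with the highest level here. The stretches were read from RefSeq on GRCm38.p6 on the strand of the gene, and capitals mark half-sites. These were searched on both strands as the consensus AGGTCA, as the forms AGTTCA of known elements and GGTTCA of the same kind, and as the fourth form GGGTCA. Dhrs3 lies at chr4:144892577-144892826 (plus strand), Rarb at chr14:16575477-16575726 (minus strand) and Rarg at chr15:102257523-102257772 (minus strand).
Dhrs3: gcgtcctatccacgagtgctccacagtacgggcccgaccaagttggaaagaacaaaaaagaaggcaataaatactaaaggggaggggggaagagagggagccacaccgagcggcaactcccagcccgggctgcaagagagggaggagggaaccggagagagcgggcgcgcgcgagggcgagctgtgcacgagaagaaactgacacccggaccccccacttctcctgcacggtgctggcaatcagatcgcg
Rarb: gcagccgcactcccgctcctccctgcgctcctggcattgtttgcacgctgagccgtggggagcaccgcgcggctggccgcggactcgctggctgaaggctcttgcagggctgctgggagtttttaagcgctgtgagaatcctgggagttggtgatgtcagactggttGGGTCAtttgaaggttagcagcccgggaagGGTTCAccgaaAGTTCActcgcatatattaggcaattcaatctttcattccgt
Rarg: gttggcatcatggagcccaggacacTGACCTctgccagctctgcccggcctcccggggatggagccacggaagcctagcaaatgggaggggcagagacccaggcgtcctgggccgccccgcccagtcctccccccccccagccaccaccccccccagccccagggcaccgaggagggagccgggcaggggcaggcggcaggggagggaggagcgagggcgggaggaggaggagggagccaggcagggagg
Rarb held 3 half-sites, of which the last 2 form a direct repeat with 5 bases between them, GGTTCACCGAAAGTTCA. It begins 53 bases before the only Rarb start listed in the RefSeq windows. That start lies inside the gene, which GENCODE M21 places at chr14:16430839-16819156 (minus strand). The outer end of Rarb was thus not searched. Rarg held 1, on the opposite strand (TGACCT), and these letters did not occur in the Dhrs3 stretch. In the RefSeq windows of 300 bases around the start (250 before, 50 after), 8 of the 9 members had an entry, with 16 windows, and 5 of the 16 held a half-site, against 43.7% of all 32851 windows. The repeat with 5 bases between the half-sites occurred in 1 of the 16, that of Rarb, and in 0.0974% of all windows. Rarb is known for this repeat and the forms searched include its own, so this match was known beforehand and shows no excess among the members. Crabp2 had no entry. A match is a description of the letters, and absence from a window says nothing about binding elsewhere.

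Dhrs3, a short-chain dehydrogenase on chromosome 4, was the member that led to this set. In CPM (reads scaled to library size by the TMM method), GM-PBS libraries 1, 2 and 3 held 14.9, 19.5 and 17.6, and GM-AA libraries held 9.79, 8.13 and 7.54. In DM-PBS they held 34.5, 33.2 and 32.1, and in DM-AA 12.5, 11.1 and 12.2 CPM. The 4 groups did not overlap: GM-AA was lowest, then DM-AA, GM-PBS and DM-PBS, so that the cells in DM with AA stood below those in GM without it. These levels rest on 64 to 339 reads per library.

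In GM, a contrast that did not enter the choice of the gene, Dhrs3 fell 2.03-fold with AA, from 17.3 ± 2.30 to 8.49 ± 1.17 CPM (mean ± SD, n = 3). The log2 fold change was -1.02 ± 0.12 (SE) with an adjusted p of 1.68e-07 by edgeR's quasi-likelihood test with Benjamini-Hochberg adjustment over all tested genes. Over 13 alternatives it ran from -1.14 to -0.93, with adjusted p from 4.24e-14 to 8.85e-06. In DM, the contrast it was chosen on, the mean was 33.3 ± 1.18 CPM with PBS and 12.0 ± 0.721 CPM with AA, a log2 difference of -1.48 ± 0.10. The medium moved it the other way: DM against GM was 0.95 ± 0.096 with PBS and 0.49 ± 0.13 with AA (log2, described only). In a culture lysed as a whole, fewer cells that make a message and less message per cell cannot be told apart.

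**Figure D1:**
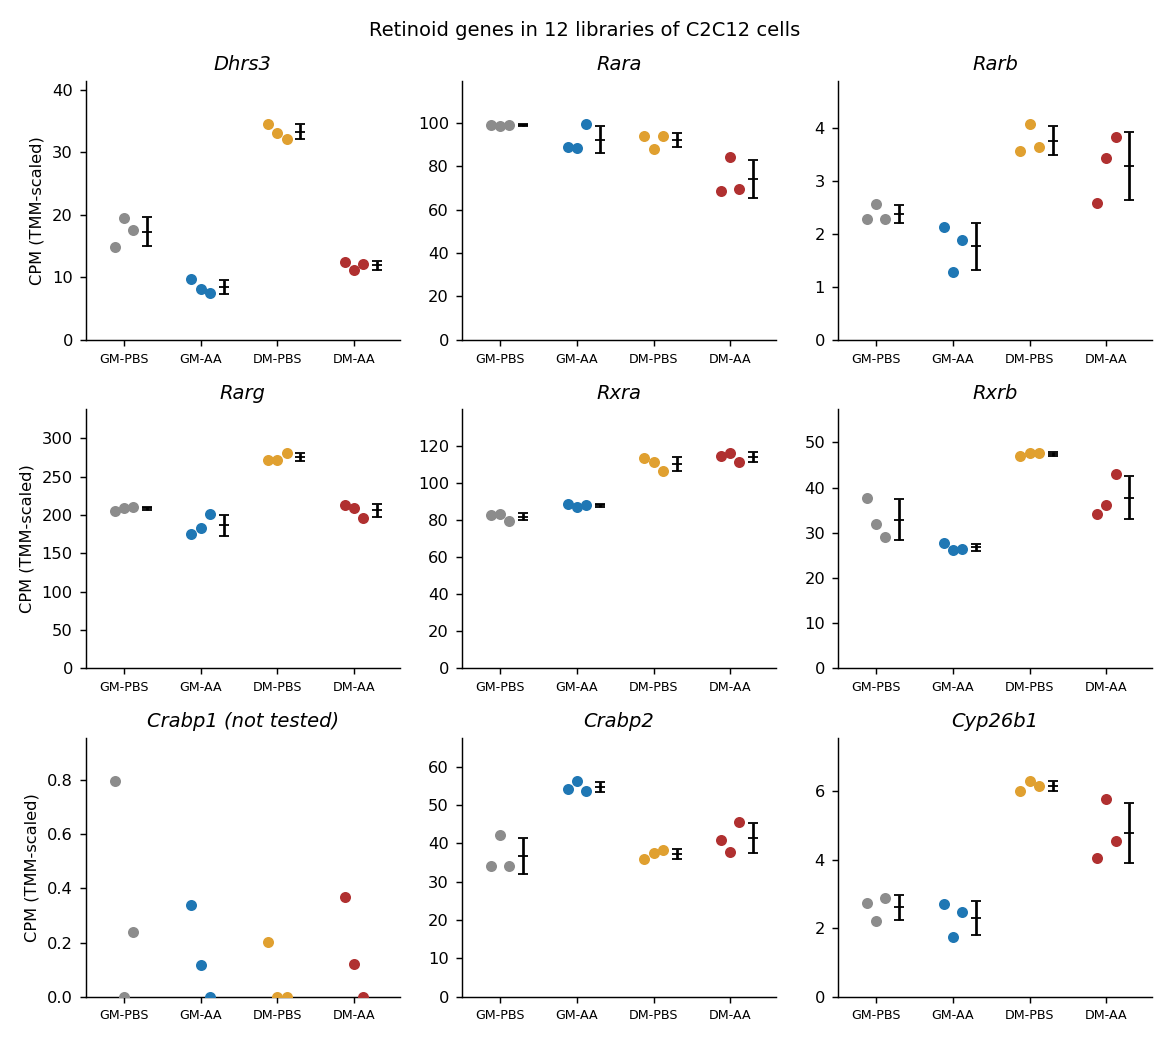
CPM scaled by TMM (vertical axes, each from 0) of the 9 genes in the 4 groups; points are libraries, and bars beside them the mean ± SD of 3 libraries, left out for Crabp1, which was not tested. Dhrs3 separates into 4 levels between 7.54 and 34.5 CPM, Crabp2 stands highest in GM-AA, and Rarb and Cyp26b1 stay below 7 CPM.

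The carriers take retinoic acid through the cytoplasm, and Crabp2 in particular passes it to RAR in the nucleus. Crabp2, on chromosome 3, was at 34.0, 42.3 and 34.1 CPM in GM-PBS and at 54.1, 56.2 and 53.7 CPM in GM-AA. The DM libraries were at 35.8, 37.6 and 38.3 CPM with PBS and at 40.8, 37.7 and 45.5 CPM with AA. All GM-AA libraries were thus above all others, while the remaining groups overlapped with their neighbours in level. Crabp2 rose 1.49-fold with AA in GM, by 0.57 ± 0.077 on the log2 scale (adjusted p = 1.11e-06, edgeR). In DM the difference was 0.15 ± 0.081 (adjusted p = 0.170), with a 95% interval of -0.013 to 0.32.

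The effect of AA on Crabp2 was smaller in DM than in GM: the difference of the effects was -0.42 ± 0.11 (adjusted p = 0.0196, edgeR). That call was lost with DESeq2 (adjusted p = 0.0508) and when DM-AA 2 (0.0785), GM-PBS 1 (0.0600) or GM-PBS 3 (0.0762) was left out. Between media Crabp2 was lower in DM than in GM among cells with AA, by -0.40 ± 0.076 (adjusted p = 3.62e-05, edgeR), and differed by 0.018 ± 0.082 among cells with PBS (adjusted p = 0.871). The latter value changed sign without DM-PBS 3, GM-PBS 1 or GM-PBS 3 (-0.0029, -0.035 and -0.034).

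Crabp1, the other carrier, had 19 reads over the 12 libraries. Libraries 1 to 3 had 7, 0 and 2 reads with PBS and 3, 1 and 0 with AA in GM, and 2, 0 and 0 with PBS and 3, 1 and 0 with AA in DM. That is too few to compare groups. Its mean of 0.146 RPKM (reads scaled to gene length and library size, the authors' values) was the lowest of the 9 genes.

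Among the receptors that bind retinoic acid, Rarg was the main message. Per length, the mean over the 12 libraries was 41.4 RPKM for Rarg, 13.9 for Rara and 0.649 for Rarb. Of the summed RPKM of the RAR genes, Rarg made up 71.2% with PBS and 70.5% with AA in GM, and 77.4% and 76.0% in DM. The sum itself was 54.6 ± 0.460 RPKM with PBS and 49.7 ± 3.06 with AA in GM, and 67.5 ± 1.52 and 51.9 ± 2.24 in DM (mean ± SD, n = 3). So the RAR messages summed to more in DM-PBS than in any other group, and with AA the sums of the 2 media lay close together.

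**Figure D2:**
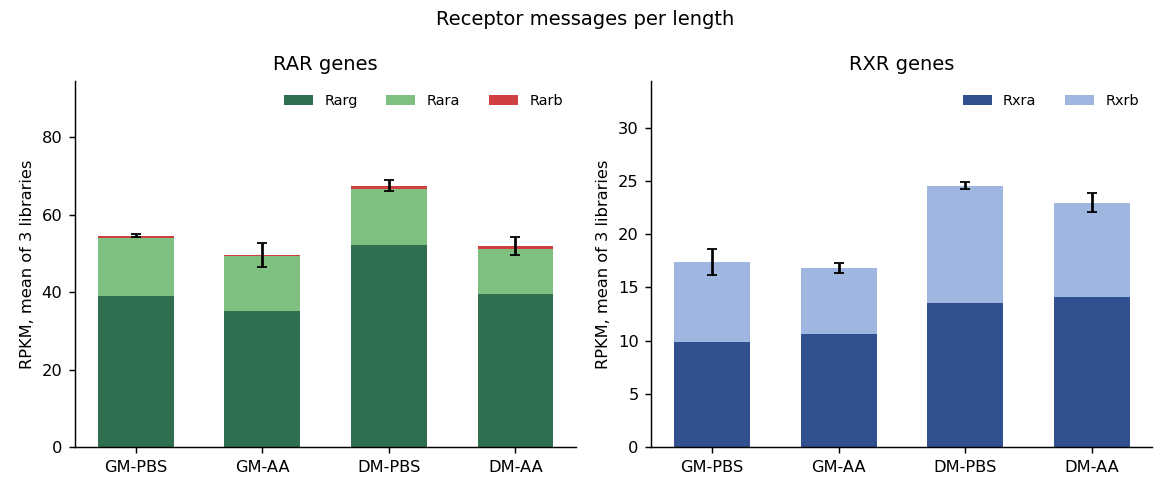
Stacked bars of mean RPKM (vertical axes from 0) of the RAR genes (left) and RXR genes (right) in each group, with the SD of the summed value over 3 libraries. The RAR sum is highest in DM-PBS at 67.5 RPKM, and Rarb is a thin band at the top of each bar.

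Rarg, on chromosome 15, was at 206, 209 and 210.5 CPM in GM-PBS and at 175, 183 and 202 CPM in GM-AA. In differentiation medium it stood at 272, 272 and 281 CPM with PBS and at 213, 209 and 196 CPM with AA. Every AA library was below every PBS library of its medium, and DM-AA overlapped both GM groups. In DM, Rarg fell 1.34-fold with AA, by -0.42 ± 0.050 (log2; adjusted p = 6.02e-08, edgeR), and this call was kept in all 13 alternatives. In GM it fell by 0.16 ± 0.051 on the log2 scale (adjusted p = 0.0208, edgeR), a call that was lost when GM-AA 1 (adjusted p = 0.131), GM-AA 2 (0.0741), GM-PBS 2 (0.0534) or GM-PBS 3 (0.0684) was left out.

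The difference of the AA effects on Rarg, DM minus GM, was -0.26 ± 0.071 (adjusted p = 0.0265, edgeR), so the fall was larger in DM. It was no longer past the test when DM-AA 3 (adjusted p = 0.0966), DM-PBS 3 (0.0545) or GM-AA 3 (0.118) was left out. Rarg was higher in DM than in GM by 0.40 ± 0.050 with PBS (adjusted p = 2.54e-08) and by 0.14 ± 0.051 with AA (adjusted p = 0.0180, edgeR). The last of these was lost when DM-AA 1 (adjusted p = 0.0866), DM-AA 2 (0.0574), GM-AA 1 (0.132) or GM-AA 2 (0.0640) was left out.

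Rara, the receptor gene on chromosome 11, was at 99.1, 98.4 and 99.2 CPM in GM-PBS and at 88.9, 88.4 and 99.4 CPM in GM-AA. In DM it was at 94.1, 88.2 and 93.8 CPM with PBS and at 68.8, 84.4 and 69.4 CPM with AA. DM-AA stood below all other groups, which overlapped with their neighbours, and its library 2 was the highest of its 3. Rara fell with AA in DM by -0.31 ± 0.064 (adjusted p = 0.000361, edgeR). In GM the difference was -0.10 ± 0.062 (adjusted p = 0.264), with a 95% interval of -0.23 to 0.025. The difference between these effects was -0.21 (adjusted p = 0.194, and 0.0273 without DM-AA 2). DM against GM was -0.31 ± 0.064 with AA (adjusted p = 0.000109, edgeR) and -0.10 ± 0.062 with PBS (adjusted p = 0.162).

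Rarb, the receptor with the repeat shown above, was near the limit of what these libraries measure, at 11 to 35 reads each. It was at 2.28, 2.57 and 2.29 CPM with PBS in GM, where the AA libraries held 2.14, 1.28 and 1.88. The DM libraries held 3.56, 4.07 and 3.64 CPM with PBS and 2.58, 3.43 and 3.83 with AA. The DM libraries were above the GM libraries throughout, and the AA and PBS libraries overlapped in DM. Exons of genes on the opposite strand (Top2b and Gm48162) covered 38.4% of the exons of Rarb in GENCODE M21, and the strand of the counting is not given in the sources used here, so its reads are uncertain. DM against GM was 0.65 ± 0.23 with PBS (adjusted p = 0.0157, edgeR) and 0.89 ± 0.25 with AA (adjusted p = 0.00367). With PBS the call was lost with DESeq2 (adjusted p = 0.0707) and without DM-PBS 2 (adjusted p = 0.0531). The AA effect was -0.42 ± 0.27 in GM and -0.19 ± 0.21 in DM (adjusted p = 0.295 and 0.561), with 95% intervals of -0.97 to 0.13 and -0.62 to 0.24.

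The RXR proteins are the shared partners of RAR and of several other nuclear receptors. Rxra, on chromosome 2, was at 82.8, 83.1 and 79.5 CPM in GM-PBS and 88.4, 87.0 and 88.0 CPM in GM-AA. In DM the values were 113, 111 and 106 CPM with PBS and 115, 116 and 111 CPM with AA. DM stood above GM without overlap in either treatment: the log2 difference was 0.43 ± 0.051 with PBS (adjusted p = 7.88e-09, edgeR) and 0.38 ± 0.050 with AA (adjusted p = 1.01e-07). The AA effects were 0.10 ± 0.052 in GM and 0.048 ± 0.049 in DM (adjusted p = 0.169 and 0.515).

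Rxrb, on chromosome 17, was at 37.8, 32.0 and 29.0 CPM in GM-PBS and 27.7, 26.3 and 26.4 CPM in GM-AA. Its DM libraries were at 47.0, 47.7 and 47.6 CPM with PBS and 34.1, 36.1 and 43.1 CPM with AA. AA libraries were below PBS libraries in both media, and GM-PBS overlapped DM-AA. Rxrb fell with AA in DM by -0.33 ± 0.082 (adjusted p = 0.00302, edgeR). In GM it fell by 0.30 ± 0.092 on the log2 scale (adjusted p = 0.0181, edgeR), which was lost when GM-AA 2 (adjusted p = 0.0559), GM-AA 3 (0.0557) or GM-PBS 1 (0.219) was left out. Without GM-PBS 1 the GM value was -0.18. Rxrb was higher in DM by 0.52 ± 0.084 with PBS (adjusted p = 2.72e-06) and 0.50 ± 0.090 with AA (adjusted p = 2.09e-05, edgeR).

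Per length, Rxra and Rxrb were closer to each other than the RAR genes, with means of 12.0 and 8.42 RPKM over the 12 libraries. Rxra made up 56.8 ± 2.87% of their summed RPKM in GM-PBS and 63.3 ± 0.538% in GM-AA. In DM its share was 54.9 ± 0.941% with PBS and 61.4 ± 3.39% with AA (mean ± SD, n = 3). The share of Rxra was thus higher with AA in both media, which was not tested. Rxrg, the other gene of the family, had 0 reads in every library.

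Cyp26b1, which oxidises retinoic acid for removal, had 15 to 59 reads per library. In GM it was at 2.73, 2.21 and 2.89 CPM with PBS and 2.70, 1.74 and 2.47 CPM with AA, and these overlapped. In DM it was at 6.01, 6.29 and 6.15 CPM with PBS and 4.05, 5.76 and 4.55 CPM with AA, without overlap. The medium gave the larger change, 2.34-fold higher in DM with PBS (1.23 ± 0.20 on the log2 scale, adjusted p = 3.77e-06, edgeR) and 2.07-fold higher with AA (1.05 ± 0.22, adjusted p = 0.000141). The AA effects were -0.18 ± 0.25 in GM and -0.36 ± 0.18 in DM (adjusted p = 0.677 and 0.134). With so few reads the 95% interval in GM ran from -0.69 to 0.33. In DM it ran from -0.72 to -0.00080, and these intervals are not adjusted for the number of genes tested.

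**Figure D3:**
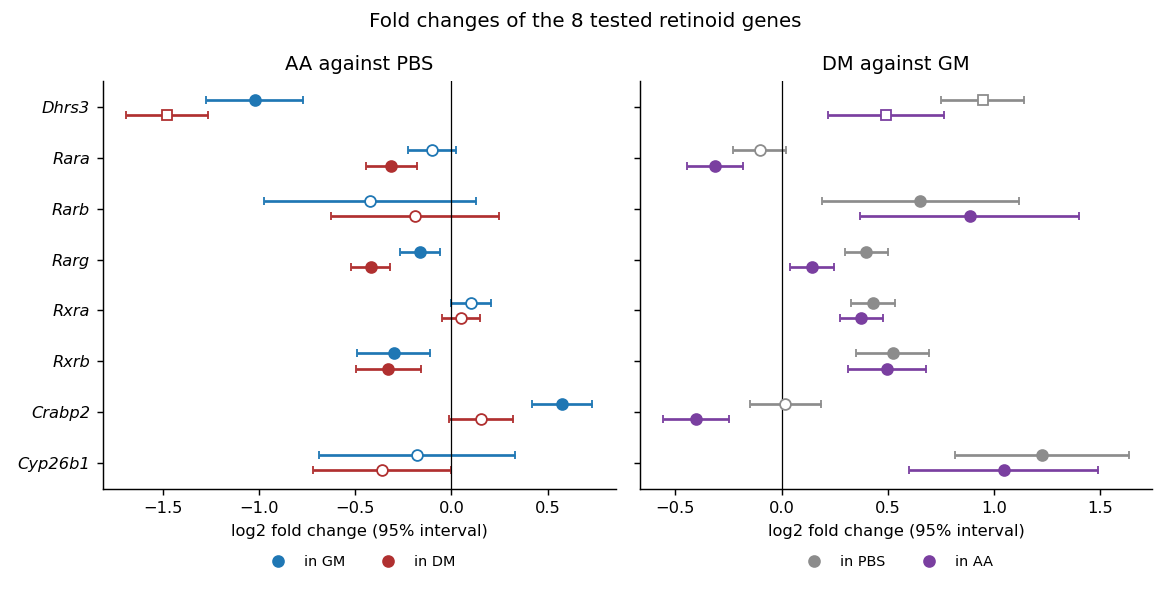
Log2 fold changes (horizontal axes) with 95% intervals of the 8 tested genes for AA against PBS (left, by medium) and DM against GM (right, by treatment); filled circles are past the test, open circles are not, and squares are the Dhrs3 values given without a test. Dhrs3 in GM lies at -1.02 and Crabp2 in GM at 0.57, on opposite sides of 0. The intervals on the squares are no test either, since Dhrs3 was picked on libraries that enter them.

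Counted over the members, AA in GM changed 4 of 8: Crabp2 rose, and Dhrs3, Rarg and Rxrb fell. Dhrs3 enters this count and the median and overlap given below. It was picked for its fall with AA in DM, so the set was not chosen blind to the AA response. Of all tested genes, 20.7% were past this test, 9.76% higher and 11% lower. The median log2 fold change was -0.17 over the members and -0.0034 over all tested genes. AA and PBS libraries did not overlap for 6 of the 8, against 34% of all tested genes. The count was 2 without GM-AA 2, and 2 to 3 over the 6 fits without 1 of the libraries compared.

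In DM, AA lowered 3 of the 7 members tested there (Rara, Rarg and Rxrb), where 26.4% of all tested genes were past the test and 13.8% were lower. None of the 7 rose, and the median was -0.31 against 0.0021 over all genes. Libraries did not overlap for 4 of the 7, against 40.1% of all genes. The medium had the wider reach over the genome: with PBS 54.4% of all tested genes differed, and 5 of the 7 members were higher in DM (Rarb, Rarg, Rxra, Rxrb and Cyp26b1), against 27% of all genes. PBS libraries of the media did not overlap for 6 of the 7, against 59.4% of all genes. With AA all 7 differed, 5 higher and 2 lower (Rara and Crabp2), against 52.2% of all genes, 25.9% higher and 26.3% lower. AA libraries of the media did not overlap for 6 of the 7, against 57.4%. For the difference of the AA effects, 2 of 7 passed, Rarg and Crabp2, both lower in DM, against 5.24% of all genes, with 2.67% lower. The comparisons share libraries, so these counts are not independent of each other.

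Library composition moved with AA as well. How far genes in a library lay from their mean over libraries followed the GC content of their transcripts, with Spearman's rho across genes of 0.00536 to 0.211 with PBS and -0.177 to -0.114 with AA in GM, and of 0.127 to 0.150 with PBS and -0.148 to -0.0612 with AA in DM. The GC content of the members was 61.4% for Rxrb, 59.2% for Rara, 58.8% for Rarg, 57.4% for Crabp1, 57.0% for Rxra, 56.7% for Cyp26b1, 52.4% for Dhrs3, 50.6% for Crabp2 and 47.8% for Rarb. With each library's trend on GC content and length removed, Dhrs3 in GM stayed at -0.999 ± 0.12 and Crabp2 at 0.60 ± 0.074 (adjusted p = 1.90e-07 and 1.66e-07, edgeR). The GM calls of Rarg and Rxrb were lost (-0.090 and -0.21, adjusted p = 0.174 and 0.105), and Rxra passed as higher in GM (0.17, adjusted p = 0.0136). The members past the test in GM were then 2 higher and 1 lower, in place of 1 and 3.

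In DM the falls of Rara, Rarg and Rxrb were kept with the trend removed, at -0.22, -0.34 and -0.23 (adjusted p = 0.00423, 3.93e-07 and 0.0371, edgeR). Rxra then passed as higher there too (0.13, adjusted p = 0.0378), which made 1 higher and 3 lower. For DM against GM with PBS, Rara passed as lower (-0.18, adjusted p = 0.00537), and with AA the call of Rarg was lost (0.076, adjusted p = 0.167).

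**Figure D4:**
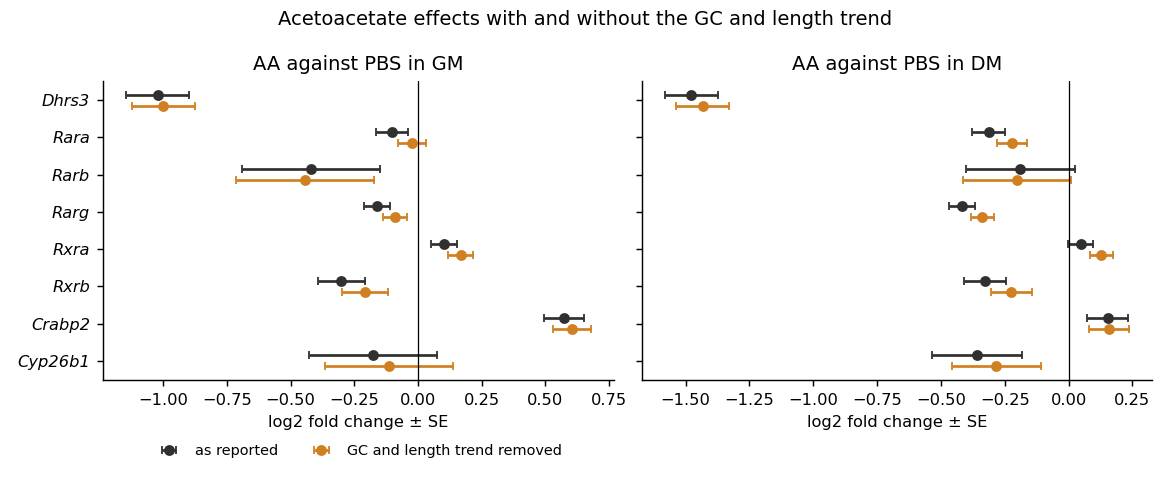
Log2 fold changes ± SE (horizontal axes) of AA against PBS in GM (left) and DM (right) for the 8 tested genes, as reported (black) and with each library's trend on GC content and length removed (orange). Dhrs3 and Crabp2 in GM hardly move, from -1.02 to -0.999 and from 0.57 to 0.60. Rara, Rarg, Rxra, Rxrb and Cyp26b1 shift upward in both media.

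The rest of the pathway was counted in 6 lists, in which Nr2f1, Nr2f2, Nrip1, Lrat and Cyp26a1 each stand in 2 of them. The shares of all tested genes to read the counts against were 9.76% higher and 11% lower for AA in GM, 12.6% and 13.8% for AA in DM, 27% and 27.4% for DM against GM with PBS, and 25.9% and 26.3% with AA. Of genes for uptake, binding and storage of retinol, 6 of 11 had enough reads. Stra6, the membrane receptor that takes retinol from its plasma carrier, was at 0.753 ± 0.0814 CPM in GM-PBS and 6.99 ± 0.565 CPM in DM-PBS, and rose by 3.20 ± 0.25 on the log2 scale (adjusted p = 4.97e-13, edgeR). Its GM level was below those of Rarb and Cyp26b1 and rests on few reads, so the size of this rise is uncertain. With AA in DM, Stra6 rose further to 13.1 ± 1.23 CPM (0.90 ± 0.13, adjusted p = 2.31e-06, edgeR). The endocytic receptor Lrp1 fell with AA in GM and in DM, by -0.45 ± 0.060 and -0.50 ± 0.060. In counts, none rose and 1 of the 6 fell with AA in GM (1 rose without GM-PBS 2), and 1 rose and 1 fell in DM (2 fell with the GC trend removed). In DM against GM, 3 rose and 2 fell with PBS and 2 rose and 2 fell with AA. The list medians for AA were -0.074 in GM and -0.018 in DM, where those over all tested genes were -0.0034 and 0.0021. The difference of the AA effects passed for Lpl, a lipase of the cell surface, at -0.51 ± 0.15 (adjusted p = 0.0481, edgeR), a call that was kept without DM-PBS 1 or GM-PBS 2 and lost without any other library, with DESeq2, with RLE scaling and with the RPKM divisor as library size. Lrat, the enzyme that stores retinol as esters, had at most 1 read in a library.

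Of the dehydrogenases and reductases of the pathway, 14 of 29 were tested. Rdh10, the retinol dehydrogenase that works against Dhrs3, fell with AA in GM from 27.2 ± 0.647 to 19.0 ± 1.26 CPM (-0.52 ± 0.094, adjusted p = 0.000107, edgeR). In DM it fell by 0.27 ± 0.091 on the log2 scale (adjusted p = 0.0270), which was lost with DESeq2 and without DM-AA 1, DM-AA 2, DM-PBS 1 or DM-PBS 2. Rdh5, another retinol dehydrogenase, rose in DM with PBS from 6.35 ± 0.676 to 22.2 ± 1.60 CPM, while Dhrs9 and the retinaldehyde dehydrogenase Aldh1a3 fell by -1.66 ± 0.25 and -1.40 ± 0.22. The main retinaldehyde dehydrogenases of embryos, Aldh1a1 and Aldh1a2, had at most 1 and 2 reads in a library.

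With AA, 1 of these 14 rose and 2 fell in GM (list median 0.0036), and none rose and 2 fell in DM (median -0.020). The GM count of genes that rose was 0 without GM-AA 1 or GM-PBS 3 and 2 without GM-AA 3 or GM-PBS 1, and that of genes that fell was 1 without GM-AA 3. With DESeq2 the GM counts were 0 and 1. With the RPKM divisor as library size, 2 rose in GM. The DM count of genes that fell was 0 with DESeq2 and without DM-AA 2, DM-PBS 1 or DM-PBS 2, and 1 without DM-AA 1, DM-AA 3 or DM-PBS 3 and with no low-count filter. In DM 1 rose with only the groups compared and with no low-count filter. In DM against GM, 4 rose and 4 fell with PBS (2 rose with DESeq2), and 3 rose and 4 fell with AA (1 rose without DM-AA 3). These shares of the list lie near the 54.4% and 52.2% of all tested genes that changed.

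Of other enzymes and carriers for retinoic acid, 2 of 5 were tested. Por, the reductase that supplies electrons to Cyp26 enzymes, fell with AA from 122 ± 2.19 to 102 ± 3.72 CPM in GM (-0.26 ± 0.053, adjusted p = 0.000488, edgeR). In DM its change was -0.17 ± 0.054 (adjusted p = 0.0151), lost with the GC trend removed and without DM-AA 3, DM-PBS 1 or DM-PBS 3. Cyp26a1 and Cyp26c1 had at most 6 reads in a library, so Cyp26b1 was the tested gene of its family.

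Of 10 tested nuclear receptors that pair with RXR, 6 fell with AA in GM and 5 in DM, and none rose, where 11% and 13.8% of all tested genes fell. The list medians were -0.25 and -0.27, against -0.0034 and 0.0021 over all tested genes. Without GM-PBS 3 the GM count was 3. Vdr, the vitamin D receptor, fell with AA from 44.2 ± 0.162 to 28.9 ± 2.11 CPM in GM and from 62.0 ± 0.867 to 34.5 ± 3.26 CPM in DM (-0.61 ± 0.076 and -0.85 ± 0.070). Nr4a2, an immediate early receptor, fell by -1.57 ± 0.10 in GM and -1.15 ± 0.12 in DM. Nr2f2 (COUP-TFII), which can compete with RAR for DNA, fell by -0.31 ± 0.076 in GM, lost without GM-PBS 3, and by -0.39 ± 0.081 in DM. In DM against GM, 3 rose and 4 fell with either treatment, where 54.4% (PBS) and 52.2% (AA) of all tested genes changed. Among them were Pparg, the receptor of fat cell formation, which fell by -1.09 ± 0.15 with PBS, and Thra, a thyroid hormone receptor, which rose by 0.38 ± 0.061.

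The receptors act on chromatin through corepressors and coactivators. Of 13 tested with AA against PBS, 1 rose and 3 fell in GM (1 fell without GM-PBS 1), and 2 rose and 3 fell in DM. In DM the risen numbered 1 without DM-AA 1, DM-AA 2, DM-PBS 2 or DM-PBS 3, with DESeq2 and with the GC trend removed. The fallen numbered 1 without DM-AA 1, DM-AA 3 or DM-PBS 2, with DESeq2, with RLE scaling and with the RPKM divisor. The list medians were 0.0097 and -0.017. Crebbp, a histone acetyltransferase, fell by -0.34 ± 0.062 in DM, and Kat2b, another, rose by 0.31 ± 0.065 in GM. The corepressor Ncor1 was higher in DM with PBS by 0.31 ± 0.046. With PBS 5 rose and 1 fell in DM against GM, and with AA 6 rose and 2 fell (none fell without DM-AA 3 or GM-AA 3, and 1 without DM-AA 1, GM-AA 1 or GM-AA 2, with DESeq2, with the RPKM divisor or with the GC trend removed). Of all tested genes, 54.4% changed with PBS and 52.2% with AA. These were split evenly, 27% higher and 27.4% lower with PBS and 25.9% and 26.3% with AA, while more of this list rose than fell.

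Genes known to respond to retinoic acid in other systems mostly fell where they passed the test with AA in GM. In DM they moved both ways. Of 18 tested, 1 rose and 8 fell with AA in GM, where 9.76% of all tested genes rose and 11% fell. In DM 2 rose and 4 fell, where 12.6% rose and 13.8% fell. The medians were -0.17 and 0.027. Without GM-PBS 3 the GM genes that fell numbered 5, and without GM-PBS 2 those that rose numbered 2. In DM 1 rose with DESeq2 and without DM-AA 2, DM-AA 3, DM-PBS 1 or DM-PBS 2. Tgm2, a transglutaminase and a classical target of retinoic acid, rose in GM from 15.8 ± 1.88 to 24.0 ± 2.23 CPM and in DM from 58.9 ± 3.10 to 141 ± 19.4 CPM (0.61 ± 0.12 and 1.26 ± 0.074, adjusted p = 0.000407 and 1.30e-14, edgeR). The homeobox gene Meis2 fell by -0.21 ± 0.048 in GM and by -0.55 ± 0.051 in DM. The AA effect differed between media for both Tgm2 (0.65 ± 0.14, adjusted p = 0.00405, edgeR) and Meis2 (-0.34 ± 0.070, adjusted p = 0.00194). In DM against GM, 6 rose and 8 fell with PBS and 7 rose and 7 fell with AA, where 54.4% and 52.2% of all tested genes changed. The responsive gene Stra8 had at most 1 read in a library.

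**Figure D5:**
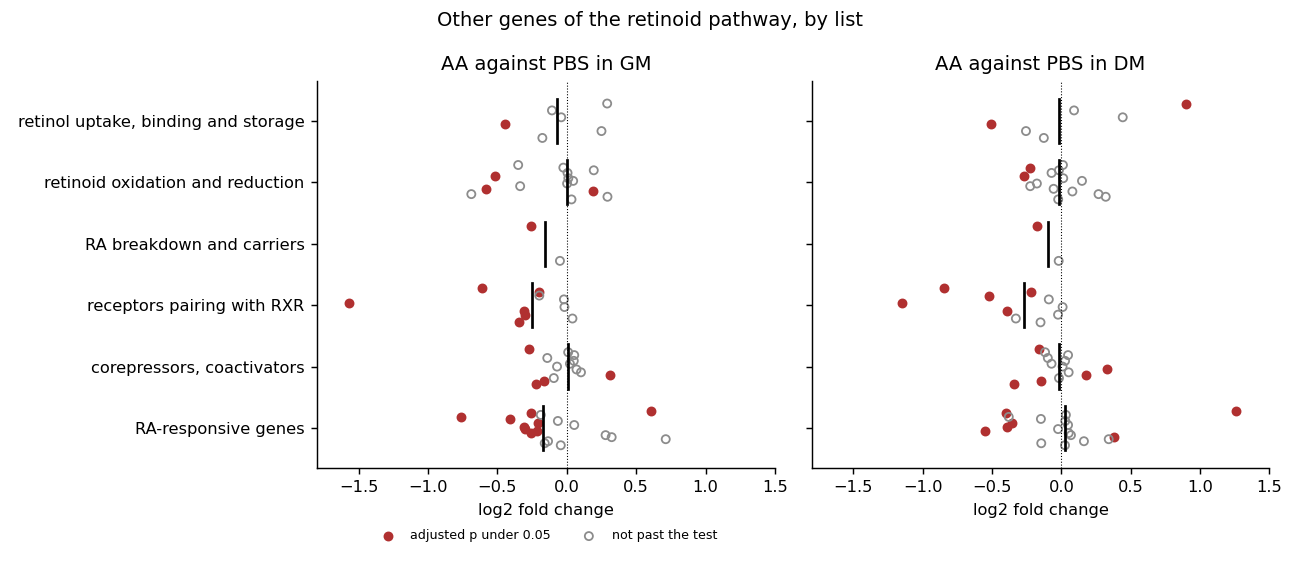
Log2 fold changes (horizontal axes) of AA against PBS in GM (left) and DM (right) for the tested genes of the 6 lists; each circle is a gene, filled where past the test, and the black bar is the list median. The receptors that pair with RXR have medians of -0.25 and -0.27, and the point at 1.26 in DM is Tgm2.

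The genes whose levels followed Dhrs3 most closely were sought among 10415 tested genes with a mean of at least 5 CPM, by Pearson's r of log2 CPM over the 12 libraries. They were Stmn2 (r = 0.989), Ppp3ca (0.976), Deptor (0.974), Tfdp2 (0.974) and Vdr (0.970). Deptor, an inhibitor in the mTOR complexes, was at 136 ± 5.07 CPM with PBS and 83.5 ± 4.49 with AA in GM, and at 205 ± 7.86 with PBS and 111 ± 5.60 with AA in DM, the same order as Dhrs3. Among the members, Rarg followed Dhrs3 most closely (r = 0.906), and Crabp2 ran the other way (r = -0.70). The 12 points are 4 groups of 3 libraries, so these values describe the group pattern and have no p-value. The 5 genes were picked for their likeness to Dhrs3, so a shared order follows from that choice. Dhrs3 was itself picked on the DM libraries, which enter every r.

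Markers of the labelled cell type were present: all 7 myoblast genes were tested, with Des at 1433 to 1866 CPM and Myod1 at 163 to 232 CPM. Their sum was higher with AA in both media, at 2313 to 2380 CPM (PBS) and 2701 to 2786 (AA) in GM, and 2651 to 2688 (PBS) and 3102 to 3363 (AA) in DM. Des made up the largest part of this sum and Chrna1 (416 to 704 CPM over all libraries) the next. The sum therefore does not show how the markers of lower level moved. Summed markers of fat cells were at 0.236 to 1.35 CPM and those of endothelial cells at 0.490 to 1.86 CPM, with Plin1, Lep, Alb and Ttr at 0 reads in every library. The sum of 7 bone and cartilage markers, nearly all from Runx2 and Sox9, was 256 to 270 CPM (PBS) and 188 to 213 (AA) in GM, and 213 to 243 (PBS) and 162 to 175 (AA) in DM, with Ibsp at 0. Epithelial markers, mostly Krt19, summed to 84.6 to 87.6 CPM with PBS and 69.0 to 75.8 with AA in GM, and to 27.4 to 31.0 with PBS and 29.4 to 30.6 with AA in DM. The bone and cartilage sum was thus lower with AA in both media and the epithelial sum in GM, as was Dhrs3 in both, while the myoblast sum was higher. The part of these sums in the results was not tested.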

How the data were processed

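RNA from 12 libraries of C2C12 cells was sequenced after TRIZOL lysis. The submitters' processing notes name BWA 0.5.9-r16 and mm9. Not given in the sources used here are how reads were assigned to genes, the annotation, the strand and the handling of multiple matches. The authors deposited raw read counts and RPKM for each gene, with the gene's length, per the file headers (0 columns without a sample). RPKM recomputed from the deposited counts differed by at most 0.000498%.

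Counts were filtered with filterByExpr, scaled by TMM and fitted with edgeR 4.0.16 in R 4.3.3 as 4 group means over 12 libraries (glmQLFit and glmQLFTest, two-sided, 8 residual degrees of freedom). P-values were adjusted by Benjamini-Hochberg over the 12230 tested genes, and "past the test", "rose", "fell" and "lost" refer to an adjusted p of 0.05. The SE is the log2 fold change divided by the square root of F. CPM are TMM-scaled, and RPKM, the deposited values, served for levels between genes. Counts of libraries in a group differed by a chi-square of 1.46 to 2.94 per degree of freedom, where counting noise gives 1. The fit was also run on simulated counts, with 1 spread shared by all genes and changes for AA in GM only. It recovered 86% of 1.5-fold and 97% of 2-fold changes, and 4.19% of its calls were false. The simulation does not cover the spread of single genes in the real libraries, smaller changes or genes of few reads.

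Alternatives were RLE scaling, DESeq2 1.42.0, no filter, fewer groups, a replicate block, the RPKM divisor as library size, removal of the trend on GC content and length, 1% FDR, and leaving out each library. GENCODE M21 (GRCm38) gave GC content, for 99.3% of tested genes, and overlaps of exons, promoters from RefSeq on GRCm38.p6, while reads were aligned to mm9. All 9 members are named. From each list up to 4 genes past the test with the smallest p in a comparison are named, and some are not reported here, as are genes with too few reads and the 5 genes most like Dhrs3. The members, lists and tests were chosen with earlier results of these data known.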

Additional observations from a re-analysis of the deposited data

Results flagged for a closer look

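The effect of AA differed between the media for 2 members, by the test of the difference itself over all 12 libraries. For Rarg the effect in DM minus that in GM was -0.26 on the log2 scale, with falls in both media. For Crabp2 it was -0.42, with a rise past the test in GM and a value of 0.15 in DM that did not pass. Each of these calls was lost without at least 1 library, as given with the genes. Groups of 3 libraries are too small for a test of single outlying libraries.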

How the results depend on the processing

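Of 503 tested fold changes of members under the alternatives, 470 kept direction and call, 23 lost the call, 4 gained it and 6 changed sign. The 57 values of Dhrs3 given without a test moved by less than the spread between libraries. Leaving out 1 of 3 libraries can hardly move a group mean past that spread. These values are therefore a description and lend no weight to the choice of Dhrs3. The reversed values all belong to differences near 0: Crabp2 in DM against GM with PBS (-0.0029 without DM-PBS 3, -0.035 without GM-PBS 1, -0.034 without GM-PBS 3, up to 0.13 without GM-PBS 2) and the difference of AA effects on Rxrb (0.041 without DM-AA 1, 0.0052 without DM-AA 2, 0.056 without GM-PBS 3, down to -0.14 without GM-PBS 1). At 1% FDR, 2 members in place of 4 passed for AA in GM, and 0 in place of 2 for the difference of AA effects (edgeR), where DESeq2 called 1 at 5% FDR. Leaving out 1 library gave 2 to 3 members for AA in GM, 3 in each fit in DM, 4 to 5 for the media with PBS, 6 to 7 with AA and 1 to 2 for the difference, which was 1 without DM-AA 3, DM-PBS 3, GM-AA 3, GM-PBS 1 or GM-PBS 3. With the replicate block the counts were 4, 3, 5, 7 and 2, as without it, and 1 gene of retinoid oxidation and reduction rose with AA in DM, where none did without it; libraries with the same number deviated together by r of -0.028 to 0.024, so the numbers were not taken as pairs. DESeq2 called 452 of all genes for the difference, against 641 with edgeR. Scaling moved the median of all genes by at most 0.028 (log2). Depth limits Rarb, Cyp26b1 and Crabp1 among the members, and also Stra6 in GM.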
